A study of Homo sapiens with 9 samples.

Results

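Small nuclear RNAs (snRNAs) were followed through an eCLIP experiment on malate dehydrogenase 2 (MDH2), an enzyme of the tricarboxylic acid cycle. eCLIP records, at nucleotide resolution, which RNA bases UV light had joined to a protein. The members were the exon windows of all Ensembl identifiers whose GENCODE gene type is snRNA, which gave 1663 windows on 554 of the 1901 annotated snRNA genes. The whole table held 15767966 windows on 35308 identifiers, and 0 intron windows belonged to an snRNA. The cells were Huh7, an established line of hepatocyte-derived carcinoma grown in 1 condition, and the 3 groups differed in how RNA was recovered. They were an immunoprecipitation with an MDH2 antibody (MDH2 IP), an immunoprecipitation with isotype-matched IgG (IgG IP), and the size-matched input (SMI), a part of the lysate run on the same gel without immunoprecipitation. Each group had 3 libraries. Library PCR ran for 14 cycles after the IPs and for 9 cycles for SMI, so amplification and immunoprecipitation cannot be told apart in a comparison with SMI.

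Most snRNAs work in the spliceosome, where U1 and U2 recognize the 5′ splice site and the branch point of an intron and U4, U5 and U6 join as a preassembled particle. U11, U12, U4atac and U6atac take the same roles for the rare minor-class introns, with U5 shared between both machineries. U7 is not a splicing RNA but guides the 3′ end processing of histone mRNAs. All but U6 and U6atac carry a ring of Sm proteins at a uridine-rich site, pass through the cytoplasm during assembly and return to the nucleus. The human genome holds many copies of these genes, and the symbols of those taken to be pseudogenes end in P.

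The sequences of the U1 variant, U2, U4 and minor-class snRNAs with the most counts, together with U7, are printed from GRCh38 in transcript orientation, because near-identity within families decides which gene a read can be given to. Capitals mark the motif ATTTNTGG, a form of the Sm site, where a search found it on the sense strand, as it did here in RNVU1-7, RNU2-2P and RNU4ATAC. It was found in 133 of the 1901 snRNA genes (6.996%) on that strand and in 144 (7.57%) on either strand.
RNVU1-7, chr1:148038753-148038916 (-): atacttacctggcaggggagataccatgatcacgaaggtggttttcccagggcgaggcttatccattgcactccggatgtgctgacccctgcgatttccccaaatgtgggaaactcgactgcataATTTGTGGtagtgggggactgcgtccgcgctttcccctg
RNU2-2P, chr11:62841619-62841809 (-): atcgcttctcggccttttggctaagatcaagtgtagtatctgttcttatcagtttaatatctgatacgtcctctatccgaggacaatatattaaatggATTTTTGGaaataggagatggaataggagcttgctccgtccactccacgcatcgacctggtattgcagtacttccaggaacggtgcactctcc
RNU4-1, chr12:120293097-120293237 (-): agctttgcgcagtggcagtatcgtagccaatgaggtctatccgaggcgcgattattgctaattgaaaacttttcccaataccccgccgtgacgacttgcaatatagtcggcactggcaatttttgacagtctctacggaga
RNU4-2, chr12:120291763-120291903 (-): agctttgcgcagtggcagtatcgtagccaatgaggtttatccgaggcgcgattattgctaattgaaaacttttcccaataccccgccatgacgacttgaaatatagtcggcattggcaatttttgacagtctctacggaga
RNU11, chr1:28648600-28648733 (+): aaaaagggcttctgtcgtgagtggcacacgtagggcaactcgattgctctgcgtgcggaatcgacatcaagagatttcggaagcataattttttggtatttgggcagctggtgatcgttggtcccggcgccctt
RNU12, chr22:42615244-42615393 (+): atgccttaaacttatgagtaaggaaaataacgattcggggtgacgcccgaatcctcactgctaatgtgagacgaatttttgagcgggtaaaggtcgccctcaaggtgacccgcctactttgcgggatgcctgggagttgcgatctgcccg
RNU4ATAC, chr2:121530881-121531007 (+): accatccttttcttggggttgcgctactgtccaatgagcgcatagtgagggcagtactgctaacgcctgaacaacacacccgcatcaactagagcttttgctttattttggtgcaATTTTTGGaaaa
RNU6ATAC, chr9:134164439-134164564 (-): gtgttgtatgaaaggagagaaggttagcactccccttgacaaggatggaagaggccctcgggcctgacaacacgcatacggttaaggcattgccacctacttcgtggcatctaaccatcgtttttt
RNU7-1, chr12:6943816-6943878 (+): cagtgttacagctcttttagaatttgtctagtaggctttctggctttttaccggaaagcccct

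Counts could not be assigned to all copies. The 8 genes of the RNU1-1 sequence (RNU1-1 to RNU1-4, RNU1-27P, RNU1-28P, RNVU1-18 and RNVU1-29) held 128 counts in all 9 libraries together. Their 30-nt words occurred at a median of 13 places in GRCh38, and reads with more than 10 alignments had been discarded. RNU2-1, a major U2 gene, had no window, and its words occurred at a median of 15 places. The 7 genes with the RNU6-1 sequence held 747 counts, 488 of them on RNU6-5P and 105 on RNU6-6P, although their words occurred at a median of 32 places. Of the 78 words of RNU6-5P and of RNU6-6P, 0 occurred at 10 places or fewer, and how their counts came to be assigned to these 2 copies was not tested, so the values of both are uncertain. The values of U1, U2 and U6 describe the copies that held counts. RNVU1-7, which was 99.4% identical to RNU1-1, held 73.0% of the counts of the variant U1 (RNVU1) genes, and RNU2-2P held 97.3% of the counts of the RNU2 family. Of the 554 genes with a window, 362 had fewer than 10 counts in total, and the 15 genes with the most counts held 97.5% of all snRNA counts.

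A window is 50 nt long and begins every 20 nt, so a site enters up to 3 windows. Values are given in CPM, which scales a count by the sum of window counts in its library. That sum was between 5899767 and 9482209 in MDH2 IP, 8311027 and 9788461 in SMI, and 1631220 and 2942624 in IgG IP. All 11 hepatocyte marker genes had counts in SMI (mean CPM 15.2 to 3490). Of the leukocyte markers, LYZ was at 64.9 CPM in SMI, and PTPRC and CD3E were below 1 CPM. Of the 3 fibroblast markers, DCN was at 0, COL1A1 at 0.187 CPM and COL1A2 at 2.03 CPM.

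The first question was how much of each library lay on snRNAs. In MDH2 IP the share of window counts was 0.203%, 0.235% and 0.202%. In SMI it was 2.28%, 2.42% and 1.88%, and in IgG IP 0.187%, 0.176% and 0.210%. The SMI libraries were all above the IP libraries, and the MDH2 IP and IgG IP libraries overlapped. The SMI mean was 10.3 times the MDH2 IP mean and 11.5 times the IgG IP mean. An exact two-sided permutation test gave p = 0.1 for each comparison with SMI, the smallest p that 3 against 3 libraries allow, and p = 0.3 between the IPs. Over exon windows alone the MDH2 IP share was 0.379% ± 0.0132 (SD, n = 3), the SMI share 4.72% ± 0.547 and the IgG IP share 0.555% ± 0.104, and here MDH2 IP lay below IgG IP in every library (exact permutation p = 0.1). That direction was opposite to the one over all windows, where the MDH2 IP mean was higher.

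**Figure D1:**
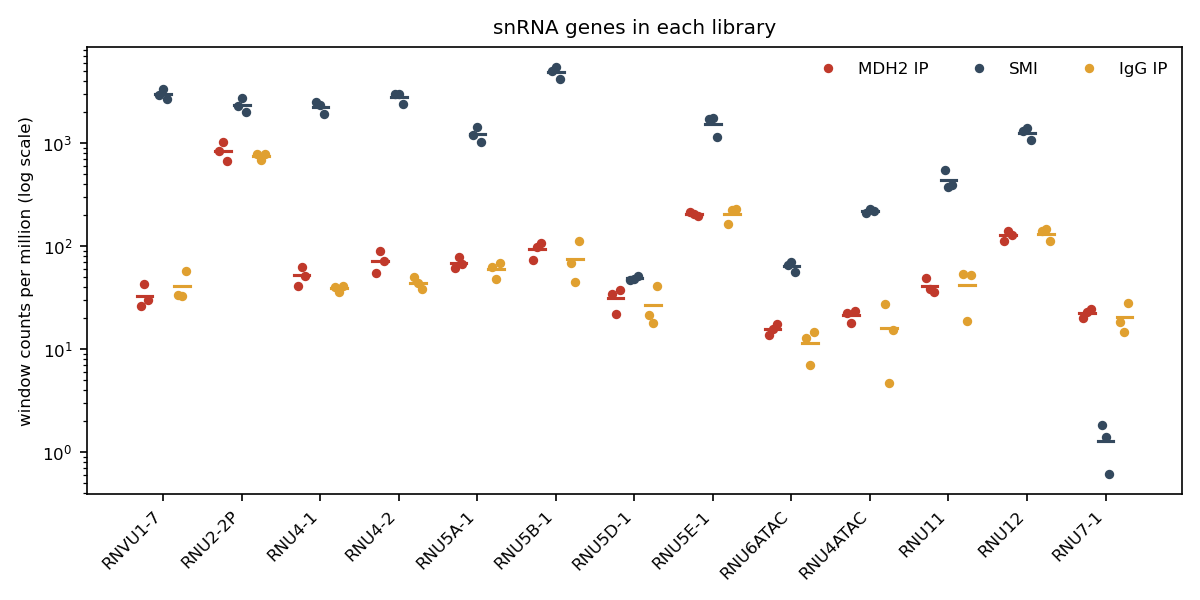
Window counts in CPM (log scale) of 13 snRNA genes in each of the 9 libraries. Points are libraries and bars are group means. For every gene but RNU7-1 the 3 SMI points lie above the IP points, and for RNU7-1 they lie below.

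Counts of all copies of a family were summed and tested within the table of all genes with edgeR's quasi-likelihood test, adjusted by the Benjamini-Hochberg method. Of the 16997 genes and families tested between MDH2 IP and SMI, 34.2% were called in either direction at an adjusted p of at most 0.05. Of the 12 families, 9 were lower in MDH2 IP, 2 were higher and 1 was not called. RNU4, the partner that U6 is paired to before activation, had a log2 fold change of -5.32 (SE 0.214, adjusted p = 5.9e-06). RNVU1 had one of -5.31 (SE 0.157, adjusted p = 1.6e-06). RNU5, whose RNA holds the exon ends together in the spliceosome, had one of -4.01 (SE 0.161). The minor-class families lay between these and the least reduced ones. RNU11 stood at -3.52, RNU4ATAC at -3.42 and RNU12 at -3.41, each with an SE of at most 0.205, and RNU6ATAC at -1.93 (95% interval -2.30 to -1.56). RNU2 stood at -1.49 (-1.91 to -1.07) and RNU1 at -1.38 (-1.77 to -0.99). These last 3 intervals overlapped each other and lay above that of RNU12, which ended at -3.05. RNU6 was higher in MDH2 IP by 1.35 on the log2 scale (SE 0.176, adjusted p = 0.0013) and RNU7 by 3.49 (SE 0.280, adjusted p = 0.00019). The RNU6 counts were spread over 323 genes, with the largest share, 8.04%, on RNU6-5P. Words of the RNU6-1 sequence occurred at a median of 32 places, beyond the 10 alignments allowed. The 7 genes with that sequence still held 747 counts, which are part of the RNU6 sum. The RNU6 value therefore describes the copies that held counts, and how much of it came from functional U6 was not tested. The unnumbered copies, which carry only a name such as U2, had a log2 fold change of 0.73 that was not called (adjusted p = 0.101).

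The comparison with IgG IP asked whether snRNA counts depended on the antibody. Of the genes and families tested between the IPs, 12.5% were called in either direction, and 0 of the 12 snRNA families were. The log2 fold changes of MDH2 IP over IgG IP ran from -0.31 for the unnumbered copies to 0.40 for RNU4 (95% interval -0.03 to 0.84, adjusted p = 0.197). Intervals were narrowest for RNU12 (-0.58 to 0.16) and RNU6 (-0.20 to 0.55) and widest for RNU4ATAC (-0.75 to 1.22). Between IgG IP and SMI, where 27.7% were called, 9 families were lower in IgG IP, RNU6 and RNU7 were higher and the unnumbered copies were not called. The log2 fold changes were -5.64 for RNU4 (95% interval -6.06 to -5.21), -5.05 for RNVU1, -3.90 for RNU5, -1.40 for RNU2, 1.26 for RNU6 and 3.55 for RNU7. Both comparisons with SMI use the same SMI libraries, so they are not independent. The call of RNU1 in IgG IP over SMI (log2 fold change -1.21, adjusted p = 0.021) was lost without SMI replicate 1 (log2 fold change -1.20, adjusted p = 0.0762) and without SMI replicate 2 (-1.08, adjusted p = 0.0583).

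**Figure D2:**
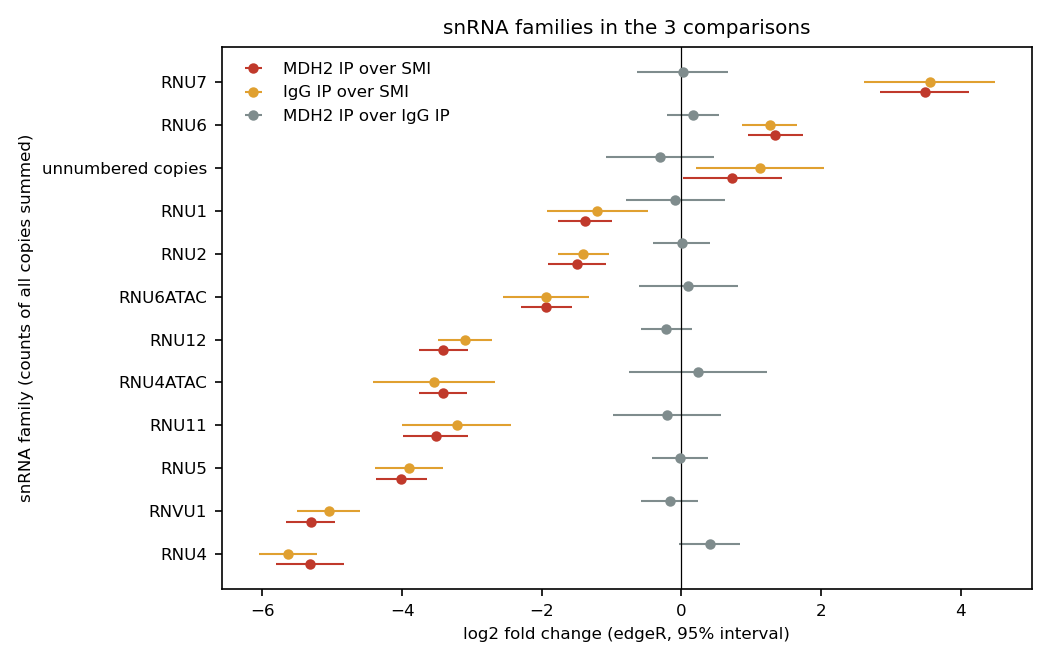
Log2 fold change of each snRNA family (counts of all copies summed) with its 95% interval from edgeR, in the 3 comparisons. The intervals of MDH2 IP over IgG IP all include 0, and in both comparisons with SMI the families run from RNU4 at the lower end to RNU7 at the upper end.

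At the level of single genes, 71 snRNA genes had enough counts (at least 10 in 3 of 6 libraries) in the comparison of MDH2 IP with SMI. Of these, 29 were lower in MDH2 IP, against 17.9% of all genes tested, and 20 were higher, against 16.4%. The lower genes comprised 8 RNVU1, 6 RNU1, 6 RNU5, 3 RNU4 and 2 RNU2 genes and the single tested genes of RNU11, RNU12, RNU4ATAC and RNU6ATAC. The higher genes comprised 13 RNU6 copies, 4 RNU2 copies, RNU1-16P, RNU4-36P and RNU7-1. Of the 20 higher genes, 15 were below the minimum in every SMI library and were tested only through the MDH2 IP libraries, where they are high, so the share called higher is in part set by the minimum and is no measure of snRNA genes as a whole. With at least 1 count in 3 libraries 219 snRNA genes were tested and 29 were called higher. Without 1 of the MDH2 IP libraries 3 to 5 genes were called higher, a setting in which the 2 remaining MDH2 IP libraries cannot by themselves meet a minimum set in 3. With the minimum in 2 libraries, an alternative added after the data were seen, 18 to 20 were called without 1 of the MDH2 IP libraries. Lower genes can likewise reach the minimum through the SMI libraries alone, where they are high, as RNVU1-17 did with 0 counts in MDH2 IP. The share called lower is therefore also in part set by the minimum. Without 1 of the SMI libraries 62 to 65 snRNA genes reached it. Over the 71 genes the median was -0.59 on the log2 scale, beside -0.01 for all genes.

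RNU5B-1 had the most counts of any snRNA gene. It had 73.9, 98.4 and 107 CPM in the MDH2 IP libraries, 5019, 5448 and 4213 in the SMI libraries and 69.0, 44.6 and 112 in the IgG IP libraries. The IP groups overlapped and both lay far below SMI, and the gene fell by 5.81 on the log2 scale against SMI (SE 0.21, adjusted p = 3.4e-06). The other U5 genes named here fell less. RNU5A-1 had 60.6, 78.7 and 66.6 CPM in the MDH2 IP libraries and 1195, 1435 and 1023 in the SMI libraries, a log2 fold change of -4.24 (95% interval -4.66 to -3.83). RNU5E-1 had 212, 206 and 197 CPM in the MDH2 IP libraries, 1726, 1758 and 1134 in the SMI libraries and 163, 224 and 227 in the IgG IP libraries, a log2 fold change of -3.00 over SMI (-3.42 to -2.58). RNU5D-1 had 34.1, 22.0 and 37.5 CPM in the MDH2 IP libraries, 47.2, 48.2 and 51.5 in the SMI libraries and 21.4, 17.97 and 40.5 in the IgG IP libraries. All SMI values were above all IP values, but the change was the smallest of the called U5 genes (log2 fold change -0.75, interval -1.21 to -0.28, adjusted p = 0.022). The call of RNU5D-1 was lost in a fit of all 9 libraries and without MDH2 IP replicate 1, MDH2 IP replicate 2 or SMI replicate 1. The intervals of RNU5B-1, RNU5E-1 and RNU5D-1 did not overlap each other, so genes of 1 family stood at different ratios of IP to input. RNU5E-1 was 88.3% and RNU5D-1 81.9% identical to RNU5A-1, and RNU5B-1 94.0%.

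The U4 genes RNU4-1 and RNU4-2 lie next to each other on chromosome 12 and were 97.2% identical. RNU4-2 had 54.3, 90.1 and 71.2 CPM in the MDH2 IP libraries, 2974, 3007 and 2416 in the SMI libraries and 50.3, 43.5 and 38.6 in the IgG IP libraries. RNU4-1 had 40.6, 63.2 and 51.5 CPM in the MDH2 IP libraries, 2496, 2359 and 1911 in the SMI libraries and 40.1, 35.9 and 40.5 in the IgG IP libraries. Against SMI the log2 fold change was -5.54 for RNU4-1 and -5.38 for RNU4-2, with intervals that overlapped. In CPM every MDH2 IP library was above every IgG IP library for both genes, but over IgG IP neither was called (adjusted p = 0.47 and 0.14, edgeR).

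RNVU1-7, the best-counted U1 gene, had 26.1, 42.7 and 30.2 CPM in the MDH2 IP libraries, 2942, 3381 and 2684 in the SMI libraries and 33.3, 32.5 and 57.0 in the IgG IP libraries. Its log2 fold change of MDH2 IP over SMI was -6.60 (SE 0.24, adjusted p = 3.4e-06). RNVU1-31, 98.8% identical to RNU1-1, had 49.3, 46.8 and 55.9 CPM in the MDH2 IP libraries and 1006, 988 and 906 in the SMI libraries, and fell by 4.35 (-4.66 to -4.04). RNVU1-17 had 111 counts in SMI and 0 in MDH2 IP, 29.8-fold lower when set against a floor of 3 counts over the 3 libraries. RNU1-140P (67 counts in SMI) and RNU1-112P (48 counts) were also at 0 in MDH2 IP, 17.98-fold and 12.9-fold lower against that floor. RNU4-66P, with 30 counts in SMI and 0 in MDH2 IP, was 8.05-fold lower against it. As 1 site can give up to 3 window counts, these folds are not lower bounds.

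RNU2-2P, a U2 gene inside an exon of WDR74 on the same strand, held the largest share of the IP counts on snRNAs. It had 833, 1015 and 673 CPM in the MDH2 IP libraries, 2304, 2760 and 1990 in the SMI libraries and 776, 691 and 788 in the IgG IP libraries. It fell by 1.58 on the log2 scale against SMI (SE 0.19, adjusted p = 0.0009) and did not differ detectably from IgG IP (log2 fold change 0.01). It held 41.1%, 43.1% and 33.4% of the snRNA counts of the MDH2 IP libraries, 10.1%, 11.4% and 10.6% of those of the SMI libraries, and 41.5%, 39.2% and 37.6% of those of the IgG IP libraries. RNU5B-1 went the other way, with 22.3% ± 0.224 (SD, n = 3) of the snRNA counts in SMI, 4.37% ± 0.834 in MDH2 IP and 3.86% ± 1.42 in IgG IP. WDR74 counts the same sites and fell by 1.54 against SMI, so counts of its mRNA and of RNU2-2P cannot be told apart. RNU2-2P itself could be told from other U2 copies only in part, with 55 of its 162 words of 30 nt at 10 places or fewer.

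The minor-class RNAs fell by similar amounts except for U6atac. RNU12 had 112, 139 and 128 CPM in the MDH2 IP libraries, 1310, 1401 and 1067 in the SMI libraries and 139, 145 and 113 in the IgG IP libraries. RNU11, which pairs with the 5′ splice site of minor introns, had 48.6, 37.9 and 35.8 CPM in the MDH2 IP libraries, 553, 373 and 389 in the SMI libraries and 53.4, 18.6 and 52.7 in the IgG IP libraries. RNU4ATAC had 22.3, 17.99 and 23.6 CPM in the MDH2 IP libraries, 208, 230 and 217 in the SMI libraries and 27.5, 4.64 and 15.3 in the IgG IP libraries. In each case all SMI libraries were above all IP libraries, and the ranges of both IPs overlapped. RNU6ATAC had 13.6, 15.5 and 17.6 CPM in the MDH2 IP libraries and 64.7, 70.0 and 55.4 in the SMI libraries. The log2 fold change of -2.12 for RNU6ATAC (-2.51 to -1.73) was separate from those of RNU12 (-3.41, interval -3.77 to -3.05), RNU11 (-3.51) and RNU4ATAC (-3.45). RNU11, RNU12 and RNU5E-1 lie in an exon of an unnamed gene of the same strand, and RNU4ATAC in an intron of CLASP1-AS1, whose log2 fold change was -3.14. The sums of these other genes can include the same sites, so they are not separate results.

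RNU7-1 was the only gene outside the pseudogene copies that was higher in MDH2 IP than in SMI. It had 20.1, 23.1 and 24.4 CPM in the MDH2 IP libraries, 1.81, 1.39 and 0.613 in the SMI libraries and 18.4, 14.5 and 28.2 in the IgG IP libraries. Its log2 fold change was 4.06 over SMI (SE 0.34, adjusted p = 0.00023) and -0.003 over IgG IP. RNU7-1 lies on the same strand as an exon of C12orf57, whose sum can include the same sites. C12orf57 was higher in MDH2 IP than in SMI by 1.49 (SE 0.375, adjusted p = 0.016), which is therefore not a separate result. Whether the counts came from U7 or from the overlapping mRNA was not tested.

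The other 19 higher genes all had symbols ending in P and were low in SMI. Sequences are shown for 4 of them, with the 50-nt window of largest log2 fold change over SMI in capitals, because these copies differ from the functional RNA. Of these 4, RNU6-1247P was the least like its functional RNA (72.9% identity) and RNU2-36P the most (88.0%).
RNU6-1247P, chr6:151280515-151280612 (-): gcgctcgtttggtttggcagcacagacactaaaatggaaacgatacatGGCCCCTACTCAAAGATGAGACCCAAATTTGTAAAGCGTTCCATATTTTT
RNU2-36P, chr9:86422938-86423128 (-): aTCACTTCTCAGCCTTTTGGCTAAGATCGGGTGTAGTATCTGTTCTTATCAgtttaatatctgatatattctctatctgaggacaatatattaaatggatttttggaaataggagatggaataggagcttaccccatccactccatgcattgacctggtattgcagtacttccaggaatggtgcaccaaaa
RNU1-16P, chr13:113478915-113479078 (-): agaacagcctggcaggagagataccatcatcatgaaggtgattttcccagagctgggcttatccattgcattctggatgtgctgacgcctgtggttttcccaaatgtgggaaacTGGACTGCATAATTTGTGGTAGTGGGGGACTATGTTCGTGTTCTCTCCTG
RNU6-1141P, chr10:21661635-21661741 (-): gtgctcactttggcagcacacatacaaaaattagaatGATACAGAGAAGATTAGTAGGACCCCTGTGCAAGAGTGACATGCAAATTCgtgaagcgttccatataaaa

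RNU2-36P gave 135, 78 and 85 counts with the MDH2 antibody, 2, 2 and 3 in the input and 25, 9 and 27 with IgG. Its log2 fold change over SMI was 5.54 (SE 0.36, adjusted p = 6.6e-05). RNU1-16P, in an intron of DCUN1D2, gave 115, 70 and 74 counts with the MDH2 antibody, 4, 8 and 2 in the input and 20, 26 and 31 with IgG, with a log2 fold change of 4.38 (SE 0.44). DCUN1D2 as a whole had a log2 fold change of 0.17 that was not called (adjusted p = 0.307). RNU6-1247P had 76, 57 and 47 counts in MDH2 IP, 0 in each SMI library and 18, 8 and 14 in IgG IP. Set against a floor of 3 counts over the 3 SMI libraries, MDH2 IP was 74.5-fold higher. RNU6-6P (92 counts in MDH2 IP), RNU6-1153P (73), RNU2-51P (69) and RNU6-67P (46) were at 0 in SMI as well. Against the same floor they were 38.1-fold, 30.2-fold, 28.6-fold and 19.0-fold higher. As 1 site can give up to 3 window counts, these folds are not lower bounds. RNU2-41P had 249 counts in MDH2 IP and 3 in SMI, a ratio per total count of 103 (exact 95% counting interval 34.9 to 503). That interval treats window counts as independent, although a site enters up to 3 windows, so it is too narrow. RNU6-5P, which matches RNU6-1 at every base, had 12.8, 11.3 and 13.1 CPM in the MDH2 IP libraries, 5.54, 7.91 and 5.52 in the SMI libraries and 6.12, 6.38 and 6.74 in the IgG IP libraries. All MDH2 IP libraries were above all SMI and all IgG IP libraries, and over IgG IP the log2 fold change was 0.80 with no call (adjusted p = 0.13). The call of RNU6-5P over SMI (log2 fold change 0.87, adjusted p = 0.024) was lost without MDH2 IP replicate 1, MDH2 IP replicate 3, SMI replicate 1 or SMI replicate 3. RNU4-36P, with a log2 fold change of 0.93 (adjusted p = 0.039), lost its call without any 1 of 5 libraries, MDH2 IP replicates 1 and 3 and all SMI replicates. It also lost its call in a fit of all 9 libraries and with at least 1 count in 3 libraries. Of the 20 higher genes, 3 lay in an exon and 4 in an intron of another gene of the same strand, and 13 in neither. Of the 29 lower genes, 7 lay in an exon, 4 in an intron and 18 in neither.

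**Figure D3:**
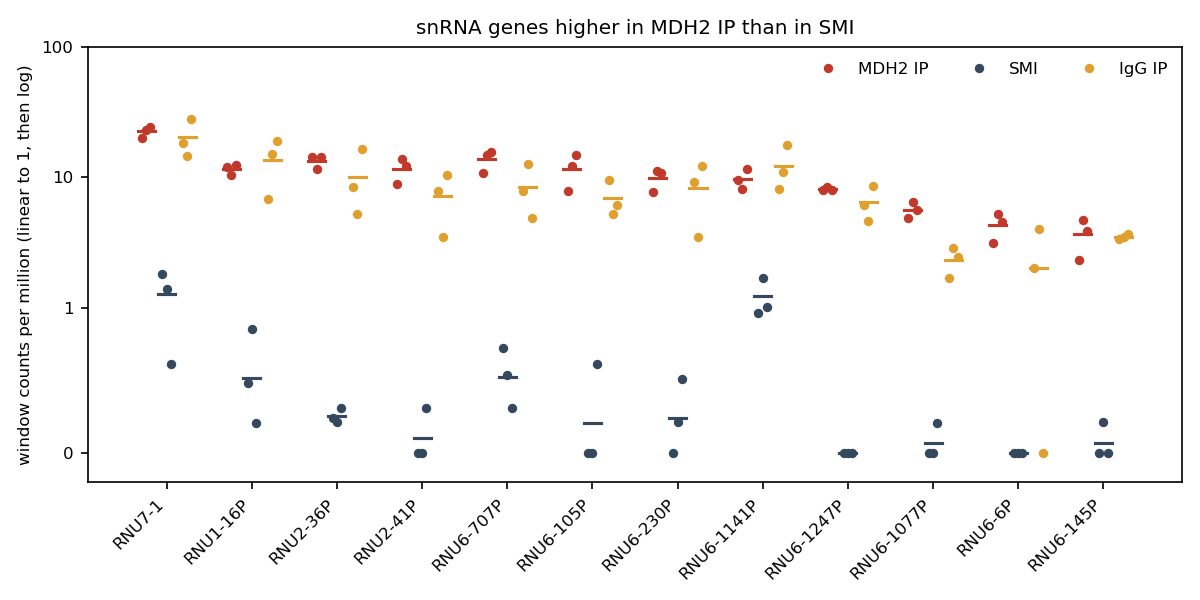
Window counts in CPM of 12 snRNA genes that were higher in MDH2 IP than in SMI, by library (linear from 0 to 1, then log scale). Points are libraries and bars are group means. The MDH2 IP points lie above the SMI points in each gene, and the IgG IP points overlap the MDH2 IP range in each gene but RNU6-1077P, where they lie below it.

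Against IgG IP, 55 snRNA genes could be tested and 0 were called in either direction by edgeR, against 4.64% of all genes called higher and 7.77% called lower. At an unadjusted p under 0.05, 4 were higher and 0 were lower, and with the DESeq2 Wald test 0 were called. The log2 fold changes of the 55 genes ran from -1.31 to 2.61, with a median of 0.04 beside 0.02 for all genes. Between IgG IP and SMI, 48 snRNA genes were tested. Of these, 25 were lower in IgG IP, against 11.4% of all genes, and 3 were higher (RNU1-16P, RNU7-1 and RNU6-1141P), against 16.4%. Without any 1 of the SMI replicates 15 were called lower among the 26 or 27 genes that then reached the minimum, and with the minimum in 2 libraries 19 to 23 were. Genes can thus reach the minimum through the SMI libraries alone, where lower genes are high. The share called lower is therefore in part set by the minimum. RNU1-16P was below the minimum in every SMI library and was tested only through the IgG IP libraries, where it is high. With the minimum in 2 libraries 11 of 69 tested snRNA genes were called higher, and with at least 1 count in 3 libraries 17 of 165 were. The share called higher is thus in part set by the minimum too. RNU1-16P was higher by 4.80 on the log2 scale, RNU7-1 by 4.14 and RNU6-1141P by 3.43. RNU6-1141P had 9.60, 8.18 and 11.5 CPM in the MDH2 IP libraries, 0.963, 1.71 and 1.02 in the SMI libraries and 8.16, 11.01 and 17.8 in the IgG IP libraries.

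Single windows were tested to ask whether any stretch of an snRNA stood out. The p-values were one-sided in each direction, and a call also needed a log2 fold change of at least 1 in size. Of 161 snRNA windows tested between MDH2 IP and SMI, 114 (70.8%) on 28 genes were lower, against 9.92% of all windows, and 29 (18.01%) on 15 genes were higher, against 4.07%. All 29 higher windows were below the minimum in every SMI library and were tested only through the MDH2 IP libraries, so nothing is read from their share. Lower windows can reach the minimum through the SMI libraries alone, where they are high, so their share is in part set by the minimum as well. Without any 1 of the MDH2 IP replicates 0 windows were called higher, and with the minimum in 2 libraries 30 to 31 were. Windows of a gene overlap and share sites, so these counts are not counts of independent regions. Among other classes, 73.7% of snoRNA windows and 70.1% of nuclear tRNA windows were lower in MDH2 IP, and 5.68% of exon windows of protein-coding genes were. Higher windows made up 1.18% of snoRNA windows, 11.59% of nuclear tRNA windows, 15.96% of scaRNA windows and 13.4% of intron windows of all genes. Nuclear tRNA windows as a whole held a larger mean share of all window counts in MDH2 IP (0.5455%) than in SMI (0.1977%) or IgG IP (0.1471%). For snoRNA windows the mean share was lower in MDH2 IP (0.2278%) than in SMI (0.5795%). The differences between classes were not tested.

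The higher windows were on RNU7-1, RNU1-16P, RNU2-36P, RNU2-41P and 11 RNU6 copies, which were RNU6-5P, RNU6-6P, RNU6-105P, RNU6-145P, RNU6-230P, RNU6-707P, RNU6-1005P, RNU6-1077P, RNU6-1079P, RNU6-1141P and RNU6-1247P. A window at nt 21-70 of RNU2-41P gave 41, 46 and 34 counts with the MDH2 antibody, 0, 0 and 1 in the input and 11, 3 and 8 with IgG. A window at nt 26-75 of RNU6-707P gave 39, 38 and 35 counts with the MDH2 antibody, 2, 2 and 1 in the input and 8, 8 and 4 with IgG, a log2 fold change of 4.24 (adjusted p = 2.3e-06). RNU6-5P held both kinds of call, 2 windows of its 5′ part being higher (nt 1-47, log2 fold change 2.71, and nt 18-67, 2.14) and 1 window lower (nt 58-107, -1.32). The windows of largest decrease were on U1 genes. At nt 115-164 of RNU1-89P there were 0, 2 and 0 counts for MDH2 IP against 138, 204 and 175 for SMI, a log2 fold change of -7.92 (adjusted p = 2.8e-11). At nt 55-104 of RNVU1-7 there were 20, 30 and 13 counts for MDH2 IP against 2794, 4313 and 3285 for SMI, a log2 fold change of -7.51 (adjusted p = 4.3e-14).

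Between the IPs, 116 snRNA windows were tested. None was higher in MDH2 IP, where 0.148% of all windows were called higher, and 0 had an unadjusted p under 0.05 in that direction. With the DESeq2 Wald test 0 were higher. On simulated data this window test found a smaller share of changed windows between the IPs than between MDH2 IP and SMI, so a lack of calls does not show that windows were alike. Lower windows numbered 6 (5.17%), against 4.77% of all windows, so the share was near the background. At an unadjusted p under 0.05, 37 were lower, and the median log2 fold change of the 116 windows was -0.50 beside 0.15 for all windows. The 6 called windows lay in pairs on RNU5E-1, RNU12 and RNVU1-7. The window at nt 115-164 of RNVU1-7 had 54, 55 and 41 counts for MDH2 IP against 24, 13 and 30 for IgG IP (log2 fold change -1.54, adjusted p = 0.0073). The 6 calls depended on the scaling. With total counts as library size 0 were called, and the same genes were not called as whole genes, with log2 fold changes of -0.15 for RNU5E-1, -0.21 for RNU12 and -0.46 for RNVU1-7. Leaving out any 1 MDH2 IP replicate gave 0 calls, leaving out IgG IP replicate 1 gave 13 and leaving out IgG IP replicate 3 gave 2. Between IgG IP and SMI, 129 snRNA windows were tested and 84 (65.1%) were lower, against 6.34% of all windows, while 5 (3.88%) were higher, against 6.17%. The 5 higher windows were on RNU1-16P, RNU7-1 and RNU6-1141P, and all 5 were below the minimum in every SMI library. Without any 1 of the SMI replicates 75 snRNA windows reached the minimum, so the share of lower windows is in part set by the SMI libraries.

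Counts along a gene were compared to ask whether the sites assigned to it in the IPs lay where they lay in the input. For each library the counts of a gene were divided among its windows, with positions counted from the 5′ end. These shares are descriptions, and an exact permutation test over libraries cannot give a p below 0.1. Of the 135 words of RNVU1-7, 21 occurred at 10 places or fewer, and of the 135 words of RNVU1-31, 60 did. Of the 78 words of RNU6-5P, 0 did, whereas all 112 of RNU4-2 and all 87 of RNU5B-1 did. At 1 place only were 64 words of RNU4-2 and 33 of RNU5B-1. The shares of RNVU1-7, RNVU1-31 and RNU6-5P may therefore depend on which stretches reads can be assigned to, which was not tested. Those of RNU4-2 and RNU5B-1 may include reads that also align to other places, which was not tested either. The window at nt 1-44 of RNVU1-31 took 61.5% ± 2.44 (SD, n = 3) of its MDH2 IP counts and 62.7% ± 1.97 of its IgG IP counts, but 22.9% ± 1.46 of its SMI counts. That end of RNVU1-31 is shown in capitals.
RNVU1-31, chr1:145465617-145465780 (-): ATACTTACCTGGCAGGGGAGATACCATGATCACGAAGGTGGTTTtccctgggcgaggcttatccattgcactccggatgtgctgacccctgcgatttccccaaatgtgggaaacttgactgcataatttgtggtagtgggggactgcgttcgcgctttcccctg

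For RNU4-2 the window at nt 1-41 took 18.01% ± 1.75 for MDH2 IP and 4.22% ± 0.624 for SMI, and the window at nt 52-101 held 23.6% ± 1.88 and 35.6% ± 1.09. In IgG IP these windows held 16.7% ± 7.77 and 24.2% ± 6.57. RNU4-1 moved the same way by less, with 10.6% ± 0.410 of its counts at nt 1-41 in MDH2 IP and 3.53% ± 0.416 in SMI. For RNU5B-1 the windows at nt 1-50 and nt 21-70 took 17.96% ± 1.90 and 16.99% ± 1.73 for MDH2 IP and 8.76% ± 0.289 and 6.21% ± 0.464 for SMI. In RNU6-5P the windows at nt 1-47 and nt 18-67 took 22.4% ± 1.14 and 33.7% ± 4.97 for MDH2 IP, 32.3% ± 4.63 and 40.2% ± 4.69 for IgG IP, and 4.82% ± 2.39 and 10.7% ± 2.49 in SMI. In each of these genes the MDH2 IP and SMI libraries did not overlap at the 5′ windows (exact permutation p = 0.1). RNU5A-1 went the other way at nt 1-50, with 21.2% ± 0.295 in MDH2 IP and 26.03% ± 0.805 in SMI, so the higher 5′ share was not common to all U5 genes. In RNU5E-1 the first window took 17.03% ± 0.929 for MDH2 IP, 13.2% ± 0.702 for SMI and 11.2% ± 2.23 for IgG IP, where the IgG IP libraries overlapped SMI and lay below all MDH2 IP libraries. RNU11 had 17.4% ± 1.77 of its MDH2 IP counts at nt 1-50, with 10.7% ± 3.09 of its SMI counts and 18.6% ± 5.57 of its IgG IP counts there.

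RNU2-2P had a smaller 5′ difference. At nt 22-71 it had 8.33% ± 1.103 of its counts for MDH2 IP, 6.38% ± 0.354 for SMI and 6.905% ± 0.369 for IgG IP, and the MDH2 IP and SMI libraries did not overlap (exact permutation p = 0.1). At nt 2-51 the means were 3.22% and 2.13%, with overlap (exact permutation p = 0.2). Its counts peaked at nt 62-111, a window that contains the Sm-type motif at nt 99-106, with 33.4% ± 0.660 for MDH2 IP, 35.7% ± 0.453 for SMI and 34.2% ± 0.424 for IgG IP. Only 55 of the 162 words of 30 nt of RNU2-2P occurred at 10 places or fewer. Where its counts peak may depend on which stretches reads can be assigned to, which was not tested. The MDH2 IP and SMI libraries did not overlap there (exact permutation p = 0.1). At nt 82-131 the shares were 29.5% ± 1.53, 30.1% ± 0.480 and 30.7% ± 0.577. RNU12 had no such peak in its listed windows, which ended at nt 130 of its 150 nt in GENCODE v44, so its 3′ end is not covered. Its 5 listed windows held between 17.2% and 23.1% each in MDH2 IP and between 16.2% and 23.8% in SMI, and the exact permutation p was at least 0.2 for every window. RNVU1-7 had its highest share at nt 95-144 in all groups, at 28.7% ± 2.65 for MDH2 IP, 29.6% ± 1.84 for SMI and 31.4% ± 6.43 for IgG IP. Towards its 5′ end MDH2 IP was above SMI without overlap, with 6.42% ± 1.20 and 3.74% ± 0.573 at nt 1-44 and 8.93% ± 0.456 and 6.10% ± 0.838 at nt 15-64, and at nt 55-104 it was below, with 8.62% ± 1.64 and 12.5% ± 1.105 (exact permutation p = 0.1 for each). The IgG IP libraries held 4.80% ± 2.51 at nt 1-44 and overlapped SMI there. In RNU5D-1 every window had p of at least 0.2.

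**Figure D4:**
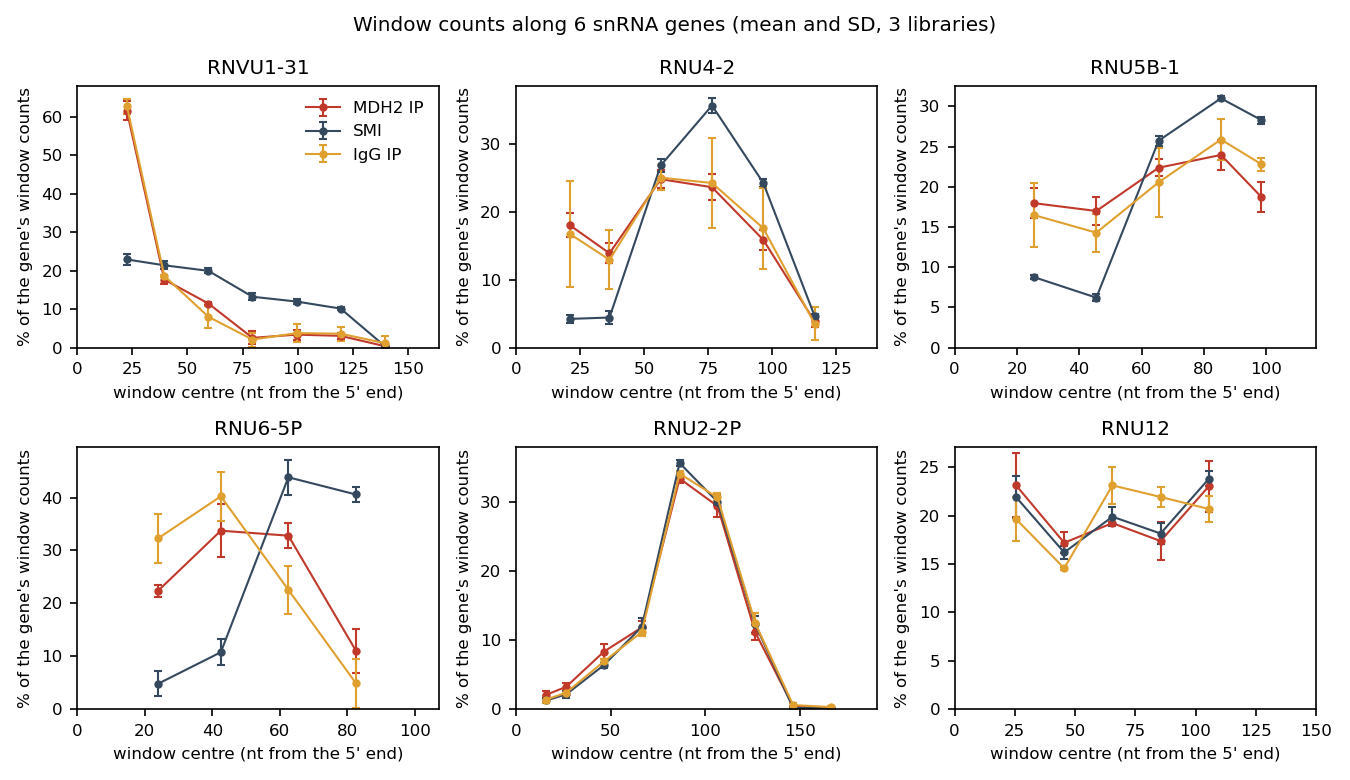
Share of a gene's window counts at each window (mean and SD over 3 libraries) against the centre of the window in nt from the 5′ end, for 6 snRNA genes. In RNVU1-31, RNU4-2, RNU5B-1 and RNU6-5P the IP lines stand above SMI at the 5′ end, and in RNU2-2P the 3 lines run close together. In RNU12 the MDH2 IP and SMI lines run close together. The shares of RNVU1-31, RNU6-5P and RNU2-2P may depend on which stretches reads can be assigned to, which was not tested. Those of RNU4-2 and RNU5B-1 may include reads that also align to other places, which was not tested either.

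The genes of proteins that act with snRNAs were read from the same gene test. It sums exon and intron windows, so a value is not one of the mature mRNA alone. In MDH2 IP 16.4% of all genes were higher and 17.9% lower over SMI (median -0.01), and 4.64% were higher and 7.77% lower over IgG IP (median 0.02). Of 16 tested genes of Sm and LSm proteins, the rings that bind these RNAs, 2 were higher in MDH2 IP than in SMI and 0 were lower, with a median of -0.03 on the log2 scale. Over IgG IP 1 of 15 was higher (SNRPB, by 0.68). SNRPN was higher by 3.52 in MDH2 IP (adjusted p = 0.0023) and by 4.24 in IgG IP. Of 38 tested genes of snRNP-specific proteins, 10 were higher over SMI and 2 were lower (median 0.22), and 7 were higher over IgG IP and 1 was lower (median 0.52). SNRNP70, the U1 protein that binds its first stem-loop, was higher over SMI by 1.39 in MDH2 IP (SE 0.205, adjusted p = 0.0019) and by 1.78 in IgG IP. SF3B1, a U2 protein at the branch point, was higher over IgG IP by 1.31 (SE 0.214, adjusted p = 0.0064). Of 43 tested genes for snRNA transcription, processing and assembly, 9 were higher over SMI and 6 were lower (median -0.04), and 5 were higher over IgG IP and 0 were lower (median 0.40). Between IgG IP and SMI the 3 lists had 1 higher and 1 lower, 4 higher and 5 lower, and 4 higher and 7 lower genes. Of all genes tested there, 16.4% were higher and 11.4% lower. The cap methylase MEPCE was higher in IgG IP than in SMI by 1.29, and the nuclear export adaptor PHAX was lower in MDH2 IP than in SMI by 0.72.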

How the data were processed

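Cross-link sites were measured by eCLIP in 3 MDH2 IP, 3 SMI and 3 IgG IP libraries of Huh7 cells. The authors trimmed reads (cutadapt), aligned them to GRCh38 (STAR), discarded reads with more than 10 alignments, removed PCR duplicates by molecular identifiers and deposited counts of sites in 50-nt windows of GENCODE v23 genes with a step of 20 nt, not normalized. Counts of a site therefore enter up to 3 windows, and 0 columns were left unused. 1 tRNA identifier that repeated a mitochondrial tRNA was dropped.

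Gene types, symbols and coordinates came from GENCODE v44 (GRCh38). Window numbers run from the low genomic end on both strands, as tested on small RNA genes inside host genes (54 of 62 pairs on the plus strand and 53 of 58 on the minus strand), and were turned into positions from the 5′ end. The whole table was tested with the quasi-likelihood test of edgeR 4.0.16 (R 4.3.3) after TMM, by window and by gene (the sum of its windows), with Benjamini-Hochberg adjustment. A feature needed a minimum of 10 counts in 3 or more of 6 libraries. Window p-values were one-sided, and each was multiplied by how many tested windows overlapped. Genes were called at an adjusted p of at most 0.05, windows also at a log2 fold change of at least 1 in size. DESeq2 1.42.0 and Python 3.11.15 were used for alternatives and tables. The 95% intervals of fold changes come from edgeR's standard errors, which include the spread between libraries. The exact interval of RNU2-41P and the floor of 3 counts treat window counts as independent, although a site enters up to 3 windows. They therefore understate counting error, and they leave out the spread between libraries. The libraries are replicate libraries of 1 cell line, so p-values measure the spread between them.

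Before use, the window and gene tests were run on simulated counts in which the changed features were known.

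The genes named were the functional snRNA genes, up to 3 genes of each family with the highest mean MDH2 IP CPM, up to 10 windows called higher and 5 called lower per comparison, the 5 called genes of largest fold change in each direction and comparison, and up to 3 genes of each protein list and direction. Others named were chosen after their values were seen. The members, lists and tests were chosen with earlier results of these data known. Replicates differed by more than sampling noise, with a chi-square per degree of freedom of at least 6.26. Some sequences and some results on single genes are not reported here.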

Additional observations from a re-analysis of the deposited data

How the results depend on the processing

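The 11 snRNA families called in each IP relative to SMI kept their direction under every alternative tried, and the calls did too, except that of RNU1 in IgG IP over SMI. That call was lost without SMI replicate 1 or 2, at a fold change about as large (lowest and highest without each library in turn -1.42 and -0.84), and in the fits with a minimum in 2 libraries, where the call was lost as well, it was -1.21 without SMI replicate 1 and -1.08 without SMI replicate 2. The unnumbered copies were called in IgG IP over SMI with the DESeq2 Wald test (1.14) and in 1 fit of all 9 libraries (1.15), and in MDH2 IP over SMI with the replicate block (0.76). With the replicate number as a block, the counts of calls stayed within 1.5 times those reported, and it changed no other family call. Genes higher and lower in MDH2 IP over SMI then numbered 25 and 32. Same-numbered libraries had correlated deviations of 0.09, 0.39 and 0.41 between MDH2 IP and SMI, and each of these correlated best with its own number. Over all 3 pairs of groups 7 of 9 did (correlations from -0.02). The labels do not say what a number marks and not every correlation was over 0.1, so the numbers were not taken to pair the libraries.

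Counts of calls moved more. Windows higher in MDH2 IP over SMI numbered 46 with at least 3 counts in 3 libraries, and 0 to 29 without each library in turn, because 2 MDH2 IP libraries cannot reach the minimum in 3 libraries where SMI is near 0. With a minimum in 2 libraries, chosen after seeing the data, they numbered 30 to 34, and higher genes 18 to 23, against 3 to 20 under the original minimum. Windows lower in MDH2 IP over IgG IP numbered 0 with total counts as library size, 2 with DESeq2, 0 with at least 3 counts, 0 to 13 without each library, and with a minimum in 2 libraries 2 without MDH2 IP replicate 1 and 1 without IgG IP replicate 3. Windows higher in IgG IP over SMI numbered 9 with at least 10 counts in 2 libraries, 30 with at least 3 counts, 0 to 5 without each library, and with a minimum in 2 libraries 9 without SMI replicate 1, 2 or 3 or IgG IP replicate 2. Genes higher in IgG IP over SMI numbered 11 with the minimum in 2 libraries, 17 with at least 1 count in 3 libraries, and with a library left out as well 9, 10, 10 and 10 without SMI replicate 1, 2 or 3 or IgG IP replicate 2. Genes lower in that comparison numbered 15 to 27 without each library. With exon windows alone as the denominator the difference in the snRNA share was -4.34 percentage points (MDH2 IP over SMI), -0.18 (MDH2 IP over IgG IP) and -4.16 (IgG IP over SMI). With total counts as library size, the log2 fold change of the median window moved from 0.05 to 0.53 between MDH2 IP and SMI and from 0.15 to 0.93 between the IPs. Of 57 called fold changes of named genes, 7 lost their call under some alternative and 0 were reversed. The IgG IP libraries had the lowest totals, and fewer windows reached the minimum in comparisons with them (30424 and 26666, against 51105 between MDH2 IP and SMI).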
